A study of Mus musculus with 11 samples.

Results

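The kallikrein and Spink genes described here were 9 members, the kallikrein-related peptidases Klk5, Klk6, Klk7, Klk8, Klk10, Klk11 and Klk13 and the Kazal-type inhibitors Spink5 and Spink12, out of 20352 genes measured. A member was every probeset of a mouse whole-transcript array annotated to 1 gene symbol equal to the member's, and its gene level was the median of the log2 intensities over those probesets. The samples were 11 arrays of snap-frozen tissue. They held 5 keratoacanthomas, squamous tumours built of keratinocytes, all from mice double transgenic for K14-Cre and Zmiz1, and 6 normal skins. Of the normal skins, 2 came from K14-Cre;Zmiz1 double transgenic mice (normal skin 1 and 2), 2 from mice with the K14-Cre transgene alone (3 and 4) and 2 from mice with the Zmiz1 transgene alone (5 and 6). Every group therefore carried at least 1 of the transgenes, and no wild-type skin was among the samples. K14-Cre expresses Cre recombinase from the keratin 14 promoter, which is active in the basal layer of the epidermis and in hair follicles. Age, sex, strain and body site were not given in the sources used here, nor was it said which pieces, if any, shared an animal. The p-values below therefore speak of the spread between pieces, which may be partly technical.

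Kallikrein-related peptidases are secreted serine proteases made as inactive precursors. In the outer epidermis they are released at the granular layer, activate one another and cleave the proteins that hold corneocytes together, so that the surface cells are shed. Their activity is held in check by inhibitors, chief among them LEKTI, the multidomain product of Spink5, whose loss causes Netherton syndrome in humans and a lethal skin barrier defect in mice. The kallikrein genes lie side by side in a cluster on mouse chromosome 7, and Spink5 and Spink12 lie in a cluster of Spink genes.

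The starts of the kallikrein members are shown because these genes are neighbours that changed together. RefSeq promoters in build GRCm38.p6, each of 250 bases before and 50 after an annotated transcription start, were matched for all 7 kallikrein members, 9 promoters in all. The 4 below, all on the plus strand, belong to the kallikrein with the largest difference between tumour and skin (Klk13), the one with the smallest (Klk7), and the members with a KLF match closest to the start (Klk8) and with 2 such matches (Klk10). Capitals mark the matches.
Klk13, chr7:43712317-43712616: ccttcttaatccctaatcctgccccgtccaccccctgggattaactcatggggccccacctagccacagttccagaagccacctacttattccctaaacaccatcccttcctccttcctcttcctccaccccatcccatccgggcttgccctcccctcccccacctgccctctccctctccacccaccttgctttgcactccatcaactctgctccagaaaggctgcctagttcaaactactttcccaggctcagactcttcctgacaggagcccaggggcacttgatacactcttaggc
Klk10, chr7:43780804-43781103: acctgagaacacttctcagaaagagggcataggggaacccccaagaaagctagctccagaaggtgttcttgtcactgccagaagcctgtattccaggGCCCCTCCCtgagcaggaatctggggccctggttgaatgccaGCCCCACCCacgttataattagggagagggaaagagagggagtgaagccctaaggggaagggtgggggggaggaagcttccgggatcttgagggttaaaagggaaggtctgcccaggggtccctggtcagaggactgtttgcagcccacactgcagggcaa
Klk8, chr7:43797327-43797626: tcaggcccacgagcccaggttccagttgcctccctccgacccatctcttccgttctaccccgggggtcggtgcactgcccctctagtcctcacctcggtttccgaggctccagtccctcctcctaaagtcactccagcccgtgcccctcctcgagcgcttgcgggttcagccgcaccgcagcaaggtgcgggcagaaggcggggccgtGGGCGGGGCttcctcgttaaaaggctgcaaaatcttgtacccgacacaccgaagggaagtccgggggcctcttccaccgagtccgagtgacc
Klk7, chr7:43811044-43811343: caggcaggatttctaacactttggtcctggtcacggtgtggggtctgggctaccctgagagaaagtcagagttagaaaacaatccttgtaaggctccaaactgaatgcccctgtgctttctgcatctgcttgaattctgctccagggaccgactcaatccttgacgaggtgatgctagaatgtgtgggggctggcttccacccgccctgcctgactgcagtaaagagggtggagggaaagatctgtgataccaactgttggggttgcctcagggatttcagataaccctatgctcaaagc
The letters searched on both strands were GGGNGNGGC for KLF factors, TGANTCA for AP-1, AACNGGTT for grainyhead-like factors, TTGCNNAA for C/EBP factors and TATAAA for the TATA box. KLF letters were present in 3 of the 9 promoters, of Klk8, Klk10 and Klk11, and in 25.8% of all 32851 promoters in the table. In Klk10 the matches GCCCCTCCC and GCCCCACCC began 153 and 111 bases before the start, and in Klk8 GGGCGGGGC began 42 bases before it. C/EBP letters were found in 2 of the 9, both of Klk11, against 10.8% of all promoters. The AP-1, grainyhead-like and TATA letters were in 0 of the 9, against 7.81%, 2.09% and 13.6% of all promoters. No matches overlapped in these 9 windows, and a match or its absence describes these letters only.

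The first comparison, named by the series title, set keratoacanthoma against all normal skin. All 7 kallikrein members and Spink12 were higher in the tumours, while the higher level of Spink5 did not pass the test. With limma and Benjamini-Hochberg adjustment over all genes (adjusted p below 0.05), 8 of the 9 members were called higher and 0 lower, against 14.5% of all genes called higher and 10.8% lower. The median log2 difference was 2.00 over the 9 members and -0.04 over all genes. In 7 of the 9 members every tumour lay above every normal skin, which held for 9.66% of all genes.

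Klk5, Klk7 and Klk8 are the kallikreins best known from the cornified layer. Klk5 encodes a trypsin-like protease that activates other kallikreins. Its log2 levels were 7.59, 8.74, 8.59, 9.07 and 8.95 in keratoacanthomas 1 to 5, against 6.18, 6.30, 7.0, 7.71, 7.46 and 7.64 in normal skins 1 to 6. Keratoacanthoma 1 lay below normal skins 4 and 6, so the groups overlapped, and the double transgenic skins were the lowest of all. The means were 8.59 ± 0.59 (SD, n = 5) in keratoacanthoma and 7.05 ± 0.67 (SD, n = 6) in normal skin, a log2 difference of 1.54 (SE 0.33, 2.90-fold, limma adjusted p = 0.00407). This difference was 2.35 with the double transgenic skins as the only normal skin.

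Klk7 encodes the chymotrypsin-like protease of the cornified layer. Its levels were 10.02, 10.41, 10.30, 10.33 and 10.60 in keratoacanthomas 1 to 5, against 9.41, 8.85, 9.13, 9.55, 9.05 and 9.32 in normal skins 1 to 6. The groups did not overlap, and both were tight. The log2 difference of 1.12 (SE 0.14, 2.17-fold, limma adjusted p = 0.000114) was the smallest among the kallikrein members.

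Klk8, also called neuropsin, is a trypsin-like protease of skin and brain. Its levels were 9.47, 9.95, 10.10, 10.02 and 10.07 in keratoacanthomas 1 to 5, against 7.61, 6.56, 6.67, 7.38, 8.02 and 7.86 in normal skins 1 to 6. The tumours other than keratoacanthoma 1 lay within a narrow band, and all 5 were above all normal skins. Means were 9.92 ± 0.26 (SD, n = 5) in keratoacanthoma and 7.35 ± 0.61 (SD, n = 6) in normal skin, a difference of 2.57 (SE 0.26, 5.95-fold, limma adjusted p = 1.87e-05).

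**Figure D1:**
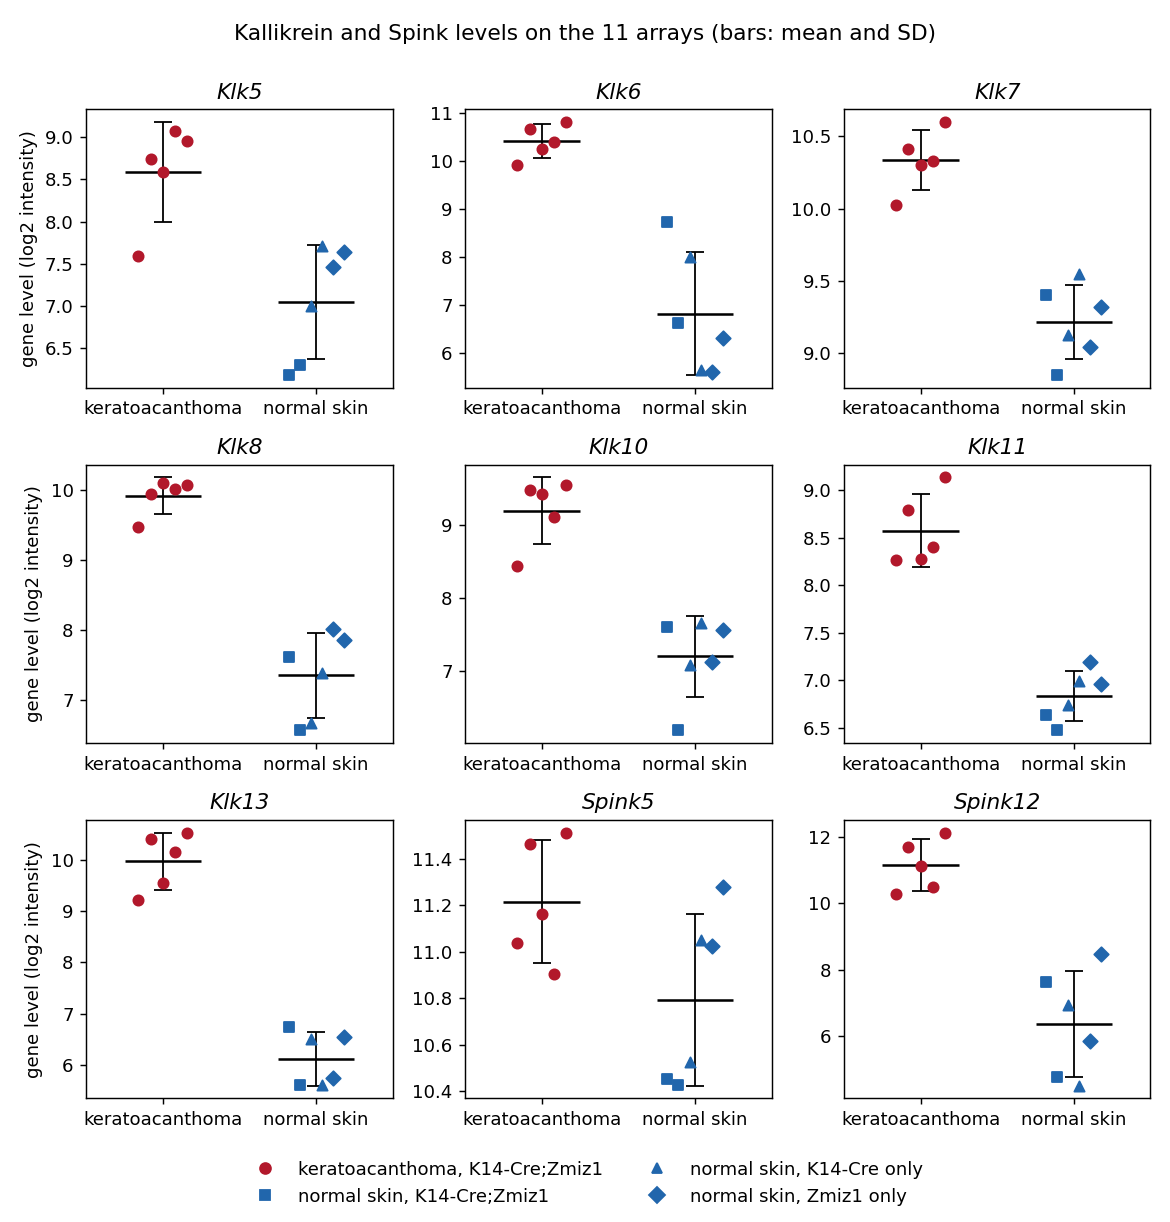
Log2 gene level of each of the 9 members (vertical axes, with a separate scale for each panel) on the 5 keratoacanthoma arrays (left, circles) and 6 normal skin arrays (right, marker by genotype), with the mean and SD of each group. The groups overlap in Klk5 and Spink5 and are apart in the other 7 members.

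Klk6, Klk10, Klk11 and Klk13 are less studied in skin. Klk6, first described in brain, where it can cleave myelin proteins, had levels of 9.92, 10.67, 10.25, 10.40 and 10.80 in keratoacanthomas 1 to 5, against 8.72, 6.62, 7.99, 5.64, 5.60 and 6.31 in normal skins 1 to 6. The tumours were alike and the normal skins wide apart, over a range of 0.88 in keratoacanthoma and 3.11 in normal skin, without overlap. The difference was 3.59 (SE 0.50, 12.1-fold, limma adjusted p = 0.000226).

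Klk13 showed the largest difference among the kallikrein members. Its levels were 9.21, 10.41, 9.56, 10.14 and 10.51 in keratoacanthomas 1 to 5, against 6.73, 5.60, 6.52, 5.61, 5.74 and 6.54 in normal skins 1 to 6. The lowest tumour stood 2.47 above the highest normal skin. Means were 9.97 ± 0.56 (SD, n = 5) in keratoacanthoma and 6.12 ± 0.53 (SD, n = 6) in normal skin, a 14.3-fold difference (log2 3.84, SE 0.28, limma adjusted p = 1.63e-06).

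Klk10, first described in human breast epithelium, had levels of 8.44, 9.48, 9.42, 9.11 and 9.55 in keratoacanthomas 1 to 5, against 7.60, 6.19, 7.08, 7.66, 7.12 and 7.56 in normal skins 1 to 6. Keratoacanthoma 1 was the lowest tumour and normal skin 2 the lowest skin, with a gap of 0.78 between the groups. The fold was 3.99 (log2 2.00, SE 0.27, limma adjusted p = 0.000187).

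For Klk11 the levels were 8.26, 8.80, 8.27, 8.41 and 9.14 in keratoacanthomas 1 to 5, against 6.64, 6.47, 6.73, 6.99, 7.20 and 6.96 in normal skins 1 to 6. Again no tumour reached down to the normal range. The log2 difference was 1.74 (SE 0.18, 3.35-fold, limma adjusted p = 2.38e-05).

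The Spink members differed in how far they moved. Spink5 had levels of 11.04, 11.47, 11.16, 10.90 and 11.51 in keratoacanthomas 1 to 5, against 10.45, 10.43, 10.52, 11.05, 11.03 and 11.28 in normal skins 1 to 6. All tumours lay above both double transgenic skins and normal skin 3, keratoacanthomas 2 and 5 lay above every skin, and 3 of the 6 normal skins lay above the lowest tumour. Its difference of 0.42 (SE 0.18, 95% interval 0.03 to 0.81, 1.34-fold) did not pass over all genes (limma adjusted p = 0.107), and an exact permutation test of the gene alone, two-sided, gave p = 0.0671.

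Spink5 was called higher under 3 of the 24 alternatives. These were the mean over its probesets (0.57, limma adjusted p = 0.0367), the double transgenic skins as the only normal skin (0.78, adjusted p = 0.0285) and the fit without normal skin 6 (0.52, adjusted p = 0.0445). Relative to keratinocyte genes, its difference was 0.07 (95% interval -0.31 to 0.45, adjusted p = 0.741).

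Spink12, a further Kazal-type gene of the chromosome 18 cluster, had levels of 10.28, 11.69, 11.12, 10.48 and 12.13 in keratoacanthomas 1 to 5, against 7.64, 4.77, 6.95, 4.52, 5.85 and 8.46 in normal skins 1 to 6. In normal skins 2 and 4 it lay below the 25th percentile of all probesets on the array, and its spread was the widest of the members, with a range of 1.85 in keratoacanthoma and 3.94 in normal skin. The groups were still 1.81 apart, and the log2 difference was 4.78 (SE 0.65, 95% interval 3.37 to 6.19, limma adjusted p = 0.00021). Without normal skin 2 the difference was 4.46, and without normal skin 4 it was 4.41.

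The members' order across arrays was shared in part. Keratoacanthoma 1 was the lowest tumour in 8 of the 9 members (keratoacanthoma 4 in Spink5), and keratoacanthoma 5 the highest in 7. Among the normal skins, normal skin 2 was the lowest in 6 members. The mean of 12 keratinocyte markers was 9.46 in keratoacanthoma 1, the highest of the tumours, and 8.69 in normal skin 2, the lowest of all arrays. The mean of 13 granular layer markers was 9.70 in keratoacanthoma 1, the lowest of the tumours, and 8.79 in normal skin 2, the lowest of all arrays. The part of these markers in the order of the members was not tested.

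Markers of other tissues differed between the groups. All 12 skeletal muscle markers were lower in keratoacanthoma, with a mean level of 5.83 to 7.39 in the tumours and 10.56 to 11.75 in normal skin, and 5 of 6 fat cell markers and 4 of 8 fibroblast markers were lower. Of the 12 keratinocyte markers, 4 were called higher and 1 lower (7 and 1 with median centring, 2 and 1 with quantile normalization), with a mean level of 9.34 to 9.46 in keratoacanthoma and 8.69 to 9.25 in normal skin. In such bulk samples fewer cells of a type and less RNA per cell cannot be told apart. When each array was set relative to its keratinocyte mean, the median of all genes moved to -0.40, and the same 8 members were called higher (5.91% of all genes). The relative differences were 4.42 for Spink12, 3.49 for Klk13, 3.24 for Klk6, 2.22 for Klk8, 1.64 for Klk10, 1.39 for Klk11, 1.19 for Klk5 and 0.76 for Klk7.

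Hair keratin levels differed within both groups. The mean of 15 hair keratins was 8.56 in keratoacanthoma 4, 9.78 in normal skin 1 and 9.42 in normal skin 3. On the other 8 arrays it was 5.72 to 6.15. Klk6 was at 7.99 and 8.72 in the normal skins high in hair keratins and at 5.60 to 6.62 in the other 4. In keratoacanthoma 4, by contrast, Klk6 was in the middle of the tumours at 10.40. Over the 11 arrays, after each group's mean was subtracted, the correlation with hair keratins was 0.81 for Klk6, 0.51 for Klk13 and -0.66 for Spink5, and between -0.36 and 0.27 for the other members, as a description of arrays that share their groups. Without the 3 arrays high in hair keratins, the difference was 4.37 for Klk6 (limma adjusted p = 3.66e-06), 5.41 for Spink12, 4.05 for Klk13 and 1.19 for Klk5 (adjusted p = 0.035), and the 8 members were called as before.

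**Figure D2:**
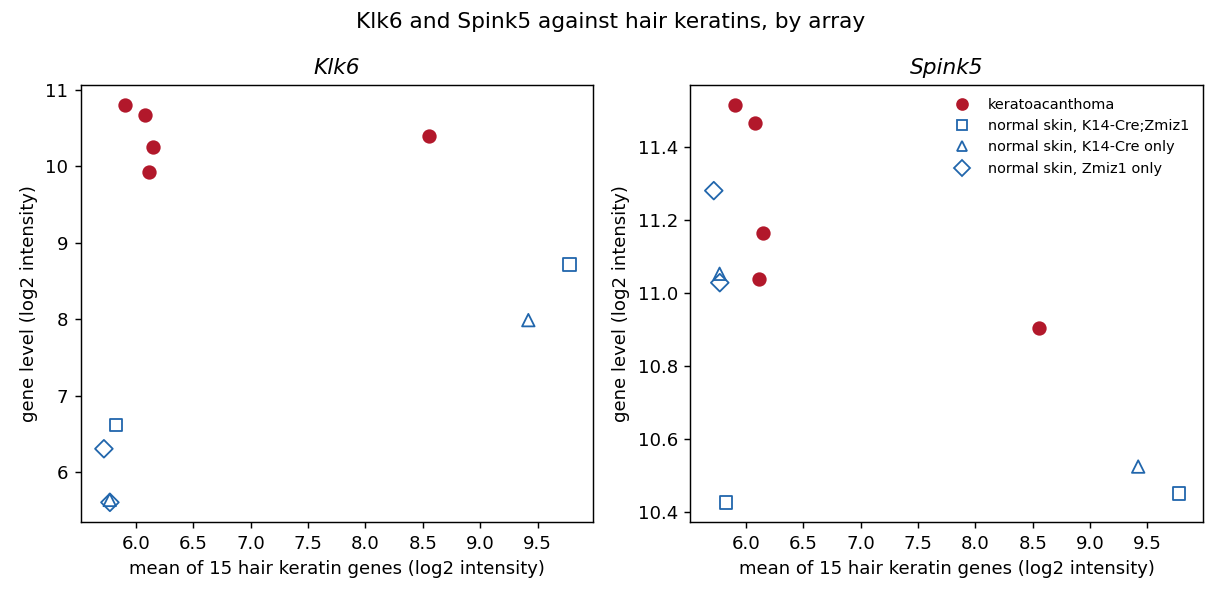
Log2 level of Klk6 (left panel) and Spink5 (right panel) against the mean log2 level of 15 hair keratin genes on each of the 11 arrays, with circles for keratoacanthoma and open markers by genotype for normal skin. In normal skin, Klk6 is at 7.99 and 8.72 on the arrays high in hair keratins and at 5.60 to 6.62 on the others.

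The second comparison held the genotype constant and set keratoacanthoma against the 2 double transgenic normal skins, in a model of 4 groups whose spread came from all 11 arrays. It shares all tumours and those 2 skins with the first comparison. All 9 members were called higher, Spink5 included, against 10.6% of all genes called higher and 6.93% lower. The differences were 4.94 for Spink12 (limma adjusted p = 0.00575), 3.80 for Klk13 (adjusted p = 0.000481), 2.84 for Klk8 (adjusted p = 0.000262) and 2.74 for Klk6 (adjusted p = 0.0131). Klk5, whose normal level was lowest in this genotype, differed by 2.35 (adjusted p = 0.00177), Klk10 by 2.30 (adjusted p = 0.00323), Klk11 by 2.02 (adjusted p = 0.000518) and Klk7 by 1.20 (adjusted p = 0.00331). Spink5 was at 11.22 in keratoacanthoma and at 10.44 in this skin, a difference of 0.78 (95% interval 0.34 to 1.22, adjusted p = 0.0232).

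These same-genotype calls rest on a pair of skins that differed from each other. Normal skin 2 had the lowest keratinocyte mean and the highest muscle mean (11.75). Without it, the differences were 3.50 for Spink12, 1.69 for Klk6, 1.60 for Klk10, 0.93 for Klk7 and 0.77 for Spink5, and these members lost their calls. Normal skin 1 was one of the skins high in hair keratins. Without it, the differences were 6.37 for Spink12, 3.79 for Klk6, 3.01 for Klk10 and 0.79 for Spink5, and Spink5 lost its call. In these fits the lone double transgenic skin was assumed to vary like the other groups. Without normal skin 2, fewer of all genes were called as well. Why the members lost their calls was not tested. Relative to keratinocyte genes the Spink5 difference was 0.34 (adjusted p = 0.233) and the other 8 members were called.

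The third comparison asked whether the double transgenic genotype itself went with other levels in normal skin, with 2 double against 4 single transgenic skins. None of the 9 members passed (limma, smallest adjusted p = 0.361), where 0.0147% of all genes did (3 of 20352, 0.00983% higher and 0.00491% lower). Klk5 was at 6.24 in double and 7.45 in single transgenic skin (log2 difference -1.21, 95% interval -2.0 to -0.43, unadjusted p = 0.00586), and Spink5 at 10.44 in double and 10.97 in single transgenic skin (-0.53, 95% interval -0.99 to -0.07, unadjusted p = 0.0266). In Klk5, Spink5 and Klk11 both double transgenic skins were below all single transgenic ones (in Klk11 at 6.64 and 6.47, against 6.73 to 7.20). The share of all genes with such a separation of 2 from 4 arrays was not counted. Over all genes, 2071 of 20352 had an unadjusted limma p below 0.05 in this comparison. The 7 members other than Klk5 and Spink5 had unadjusted p-values above 0.05. The intervals of the others differed in width, from -2.34 to 1.85 for Spink12 and -0.12 to 2.69 for Klk6, which leave room for differences of several fold, to -0.59 to 0.33 for Klk7 and -0.95 to 0.11 for Klk11.

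By genotype, the Klk5 mean was 8.59 in keratoacanthoma, 6.24 in double transgenic, 7.36 in K14-Cre and 7.55 in Zmiz1 skin. For Klk6 the means were 10.41 in keratoacanthoma, 7.67 in double transgenic, 6.81 in K14-Cre and 5.96 in Zmiz1 skin, and the K14-Cre pair alone spanned 5.64 to 7.99. Spink12 means were 11.14 in keratoacanthoma, 6.2 in double transgenic, 5.73 in K14-Cre and 7.15 in Zmiz1 skin. Keratoacanthoma stood first in each of these orders. The 3 normal genotypes, with 2 arrays each, overlapped one another in Spink12, and in Klk6 the K14-Cre pair overlapped both other pairs.

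**Figure D3:**
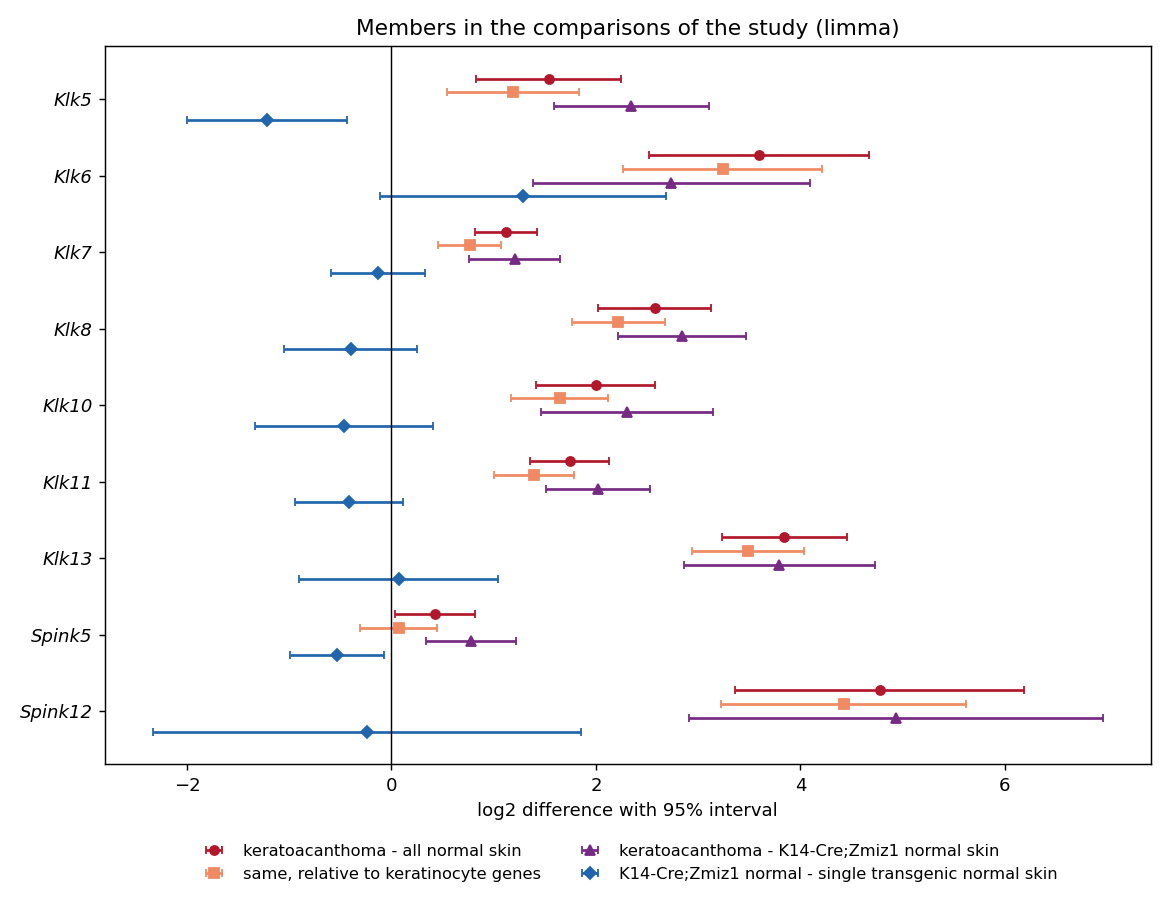
Log2 difference (horizontal axis) with its 95% limma interval for each of the 9 members, for keratoacanthoma minus all normal skin, the same relative to keratinocyte genes, keratoacanthoma minus K14-Cre;Zmiz1 normal skin, and K14-Cre;Zmiz1 minus single transgenic normal skin. The tumour comparisons lie right of 0 for all members, save that the Spink5 interval relative to keratinocyte genes includes 0, and the normal skin comparison has intervals that include 0 for all members but Klk5 and Spink5.

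The rise was not limited to the members, since the kallikreins between them on chromosome 7 rose too. In gene order, the 10 measured genes Klk14, Klk13, Klk12, Klk11, Klk10, Klk9, Klk8, Klk7, Klk6 and Klk5 were all called higher. Klk9 was at 9.26 in keratoacanthoma and 6.60 in normal skin (2.66, limma adjusted p = 3.81e-05), and Klk12 at 8.94 in keratoacanthoma and 6.55 in normal skin (2.38, adjusted p = 3.96e-06). Klk14, an activator of other kallikreins in human skin, was at 7.44 in keratoacanthoma and 6.08 in normal skin (1.35, adjusted p = 0.000399).

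On either side of these 10 genes the levels were close between the groups. The nearest genes named here, chosen by position after their values were seen, were Ctu1, which encodes a tRNA-modifying enzyme (6.78 in keratoacanthoma and 6.61 in normal skin, 0.17, limma adjusted p = 0.33), and Klk4, a protease of enamel maturation (5.61 in keratoacanthoma and 5.62 in normal skin, -0.01, adjusted p = 0.97). Klk15, the gene beyond Klk4, had a difference of 0.00 (95% interval -0.37 to 0.38, adjusted p = 0.988). It was at 4.96 in keratoacanthoma and 4.95 in normal skin, near the 25th percentile of the arrays, where a difference could be missed. Of the 16 measured kallikreins that are not members, 3 were called higher and 1 lower, Klk1b1, at 3.13 in keratoacanthoma and 3.95 in normal skin (-0.82, adjusted p = 0.00393), both below the 25th percentile of the arrays (4.88 to 4.95). The Klk1b genes are close paralogs, so that their probesets may share signal. The probesets of the members each named 1 gene only.

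Along chromosome 18, neighbours of Spink5 and Spink12 moved unequally. Spink14 was at 5.40 in keratoacanthoma and 4.28 in normal skin (1.11, limma adjusted p = 0.00133), and Spink6, which inhibits kallikreins in human skin, at 7.99 in keratoacanthoma and 5.85 in normal skin (2.15, adjusted p = 0.0165). Spink6 ran from 6.69 to 10.48 in keratoacanthoma and from 5.13 to 6.83 in normal skin, with overlap, and in the same-genotype comparison it did not pass (1.73, adjusted p = 0.195). Among the 10 other Spink genes 4 were called higher and 0 lower. The largest difference of these was in Spink7, an inhibitor known from human oesophageal epithelium, at 6.67 in keratoacanthoma and 4.11 in normal skin (2.57, adjusted p = 0.000215). Spink13 was called at 0.34 (adjusted p = 0.0332), a call that was lost relative to keratinocyte genes (-0.01, adjusted p = 0.952). Its levels, 4.54 in keratoacanthoma and 4.20 in normal skin, were both below the 25th percentile of the arrays. Spink7 and Spink14 were below that percentile in normal skin.

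**Figure D4:**
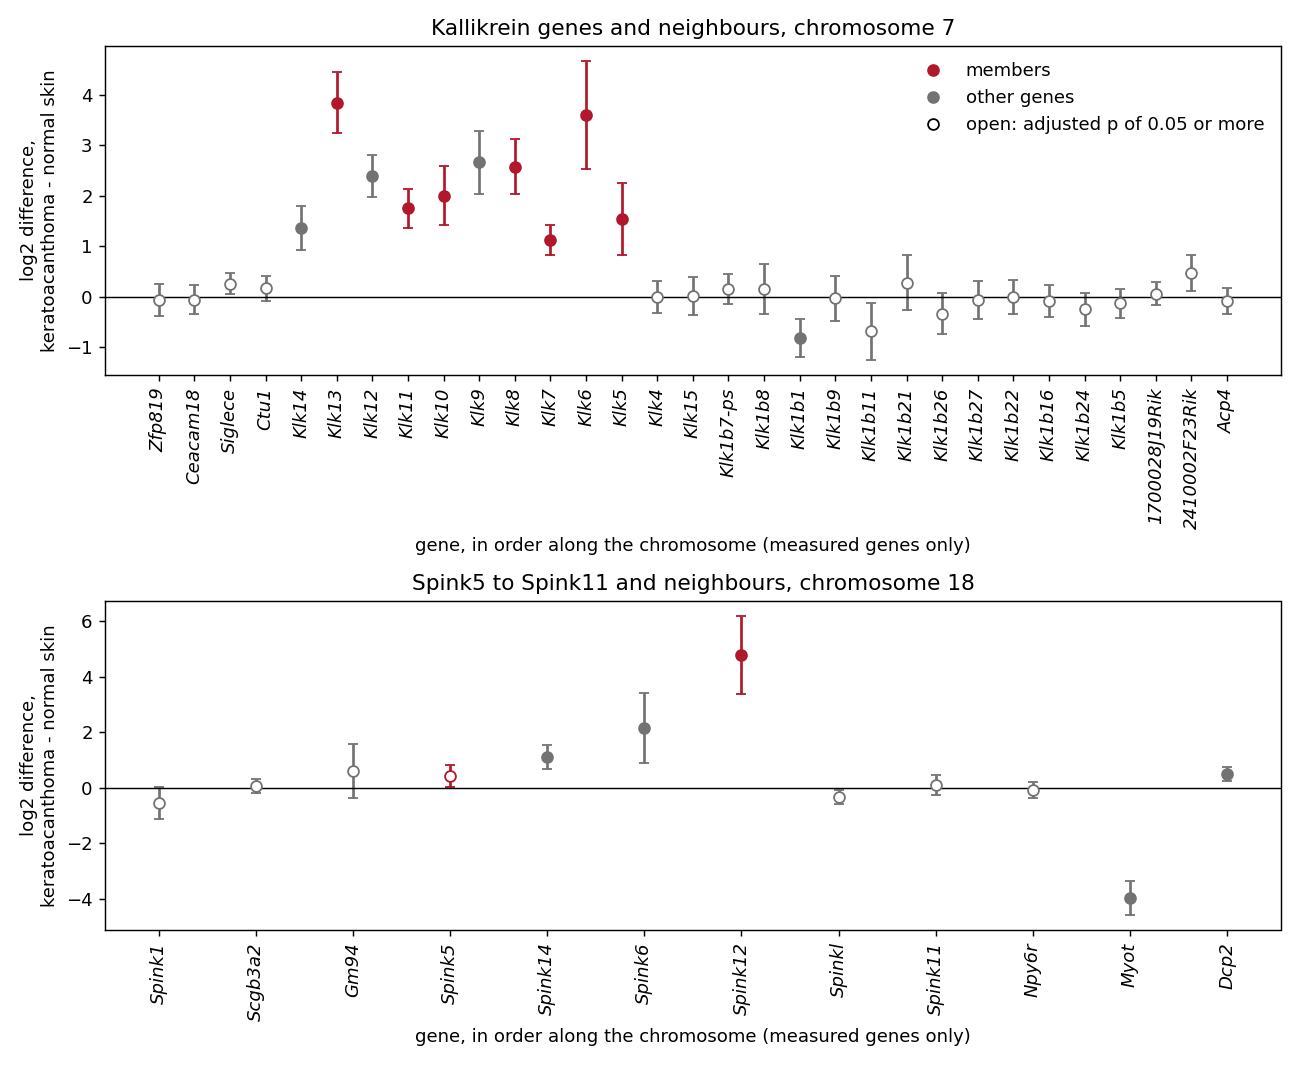
Log2 difference, keratoacanthoma minus normal skin (vertical axis, with 95% limma intervals), of the measured genes in their order along chromosome 7 around the kallikreins (top) and chromosome 18 around the Spink genes (bottom), with members in red and open circles for genes with an adjusted p of 0.05 or more. The 10 genes from Klk14 to Klk5 are all raised, and Ctu1 and Klk4 on either side are at 0.17 and -0.01.

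The single probesets of a member mostly moved together. Of the 44 kallikrein probesets 41 were called higher and 0 lower (limma adjusted over all probesets, 8.29% of which were higher), with all probesets called in Klk6 (9), Klk8 (6), Klk10 (5), Klk11 (7) and Klk13 (5). Spink12 had 6 of 6 called, with differences of 3.32 to 5.02. Klk5 had 4 of 5 called, and the remaining one differed by 0.84.

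The probesets of Klk7 were unequal. Of its 7 probesets 5 were called higher, by 0.80 to 1.77. The first by number was at 8.88 in keratoacanthoma and 9.36 in normal skin, a difference of -0.48 (limma adjusted p = 0.107). Measured against the gene's median on each array, this probeset moved by -1.60 (adjusted p = 0.00535), where 4.1% of all such probesets were called. The last was at 12.18 in keratoacanthoma and 12.13 in normal skin, where 0.148% of all probeset values on the arrays were above 12, and it moved by -1.07 against the gene (adjusted p = 0.004). In all, 8 of the 82 member probesets moved apart from their gene, among them the second of Klk8, which rose by 1.07 where the gene rose by 2.57 (relative -1.50, adjusted p = 0.00155), and the last of Klk11, which rose by 0.64 (relative -1.10, adjusted p = 0.00874). Probeset positions in the genes were not used here, so that neither an exon nor an isoform can be named.

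Spink5 had 32 probesets, all with a positive difference, of which 3 were called. Their differences were smaller where the normal level was higher, though that level is itself subtracted in the difference, which favours such a relation. Among the 3 probesets with a normal mean of at least 12 the median difference was 0.05, among the 18 between 10 and 12 it was 0.43, and among the 11 under 10 it was 0.85, up to 2.10. The part of the array's upper range in the small Spink5 difference was not tested.

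**Figure D5:**
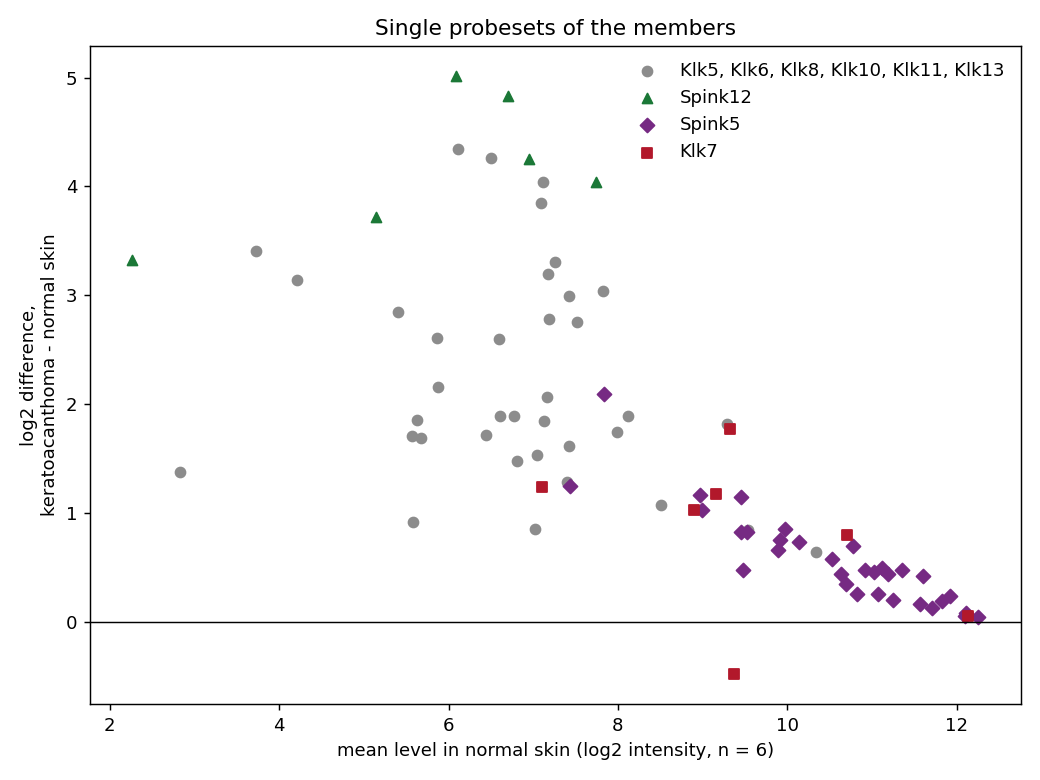
Log2 difference, keratoacanthoma minus normal skin, of each of the 82 member probesets (vertical axis) against its mean log2 level in normal skin (horizontal axis, n = 6), with Klk7, Spink12 and Spink5 marked. The 32 Spink5 probesets run from up to 2.10 at levels under 10 to 0.04 near a level of 12, and 1 Klk7 probeset is below 0.

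Among related genes, the proteases that can activate kallikreins or one another moved little. Of 10 such genes 4 were called higher and 0 lower, with a median difference of 0.37. They were Tmprss13 (0.73, limma adjusted p = 0.00229), the proprotein convertase Furin (0.51, adjusted p = 0.0018), Tmprss2 (0.48, adjusted p = 0.038) and Tmprss4 (0.43, adjusted p = 0.0371). Relative to keratinocyte genes 0 of the 10 were called higher and 2 lower, and the first of these 4 was then at 0.37 (adjusted p = 0.0654). Matriptase, the product of St14, acts upstream of kallikreins in mouse epidermis. St14 was at 7.60 ± 0.20 (SD, n = 5) in keratoacanthoma and 7.19 ± 0.60 (SD, n = 6) in normal skin, which did not pass (0.42, adjusted p = 0.25), and without the arrays high in hair keratins it did (0.70, adjusted p = 0.0112). It is named outside the rule for named genes, after its value was seen.

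Protease inhibitors outside the Spink family included some of the largest differences among the related genes. Of 8 such genes 5 were called higher and 0 lower, with a median of 0.73. Slpi, an inhibitor of neutrophil elastase, was at 11.10 ± 0.52 (SD, n = 5) in keratoacanthoma and 6.98 ± 0.91 (SD, n = 6) in normal skin (4.12, 17.4-fold, limma adjusted p = 1.3e-05). Wfdc12, of the same whey acidic protein family, was at 8.79 in keratoacanthoma and 5.69 in normal skin (3.10, adjusted p = 0.000133). Wfdc5 rose by 1.14 (adjusted p = 0.00904), a call that ended without the arrays high in hair keratins (1.00, adjusted p = 0.0579). Spint2, an inhibitor of matriptase-like proteases, rose by 0.80 (adjusted p = 0.00779). Of the neutrophil markers, 3 of 8 were higher, led by Cxcr2 (3.69, adjusted p = 3.12e-06), with a mean level of 5.13 to 6.19 in keratoacanthoma and 4.66 to 4.98 in normal skin, while Ltf, a defining granule gene named after its value was seen, was at 4.55 in keratoacanthoma and 4.53 in normal skin. Their part in the Slpi difference was not tested.

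Proteins that kallikreins can cleave, as known from human and mouse work, moved in both directions. Of the 10 measured, 5 were called higher and 1 lower, with a median of 1.10. The cytokine Il1b rose by 2.22 (limma adjusted p = 0.00151), filaggrin (Flg), which is broken down in the cornified layer, by 2.19 (adjusted p = 2.14e-05), and the desmosomal cadherins Dsg1b and Dsg1c by 1.90 (adjusted p = 8.28e-05) and 1.69 (adjusted p = 0.000113). Dsg1a, their paralog, was lower, at 10.78 in keratoacanthoma and 11.56 in normal skin (-0.79, adjusted p = 0.00309), and did not pass in the same-genotype comparison (-0.55, adjusted p = 0.0881). The Dsg1 genes are close paralogs, so that their probesets may share signal.

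Other proteases of the cornified layer were mostly higher. Of 9 genes 8 were called higher and 0 lower, 5 with quantile normalization and 4 relative to keratinocyte genes. The 4 largest were Casp14, a caspase that takes part in filaggrin breakdown (3.03, limma adjusted p = 4.54e-06), the cathepsin gene Ctsc (2.16, adjusted p = 8.28e-05), the bleomycin hydrolase gene Blmh (1.86, adjusted p = 2.52e-05) and the cathepsin gene Ctsl (0.95, adjusted p = 0.00361). Beside these, 7 of the 13 granular layer markers were higher and 1 lower, and relative to keratinocyte genes 6 were higher and 4 lower. Among them were Tgm3 (2.12, adjusted p = 0.000403), a transglutaminase of the cornified envelope, and the envelope precursor Ivl (1.83, adjusted p = 9.19e-05), while Lor, the gene of loricrin, was lower (-0.77, adjusted p = 0.00289). The median difference of the granular layer markers was 0.71, and the part of granular layer content in the kallikrein differences was not tested.

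Within the groups, the members varied together only in part. After each group's mean was subtracted, the 36 pairs of members had correlations between -0.50 and 0.92 over the 11 arrays, with a median of 0.54. Klk7 and Klk10 were the closest pair (0.92), followed by Klk13 and Spink12 (0.82) and Klk11 and Spink5 (0.80). Klk6 had correlations of 0.70 with Klk13 and 0.54 with Spink12, and of -0.50 with Spink5 and -0.44 with Klk5. These values share the arrays and their normalization, and they are given without a test.

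The gene outside the members with the most similar pattern over all 11 arrays was found for each member by Pearson's correlation. This takes in differences both between and within the groups. After each group's mean was subtracted, these pairs had correlations from 0.86 (Klk7 and Lad1) to 0.97 (Klk6 and Krt16). Each partner was picked as the highest of all genes outside the members, so that the values are high by selection. For Klk6 it was Krt16 (0.993), a keratin of stressed epidermis. For Klk13 it was Rptn (0.992), a gene of the filaggrin family. For Klk11 it was Ereg (0.992), which encodes a ligand of the EGF receptor, and for Spink12 it was Tgm1 (0.979), a transglutaminase of the cornified envelope. Lad1, which encodes a basement membrane protein, was closest to Klk7 (0.983), Ssr4, of the endoplasmic reticulum translocon, to Klk10 (0.982), and Ebna1bp2, a nucleolar protein gene, to Klk8 (0.986). For Klk5 and Spink5, the members whose groups overlapped, the closest were Ncapd3 (0.964), a condensin subunit, and Slitrk6 (0.960), a neuronal membrane protein gene.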

How the data were processed

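Per the labels' protocols, total RNA from snap-frozen tissue was amplified, and biotin-labelled cDNA was hybridised to 11 single-colour mouse whole-transcript arrays. The authors deposited log2 values of 241576 probesets, for which the submitters' processing notes name RMA, Partek and mm9. Versions and settings are not given in the sources used here. The deposited normalization was kept. The 211507 distinct probesets that name 1 gene were used, symbols were updated through RefSeq, and each of the 20352 genes took the median of its probesets. Medians of the arrays ran from 6.22 to 6.27. How many arrays there were set the precision. Coordinates belong to the RefSeq promoters in GRCm38.p6 only.

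Tests were run with limma 3.58.1 in R 4.3.3, by lmFit followed by eBayes, and called at an adjusted p below 0.05 (Benjamini-Hochberg over all genes or all probesets), in a 2-group model for tumour against all normal skin and a 4-group model for the genotype comparisons. The code was tested on simulated data. For genes with at least 4 probesets, each probeset was also tested after subtraction of the gene level. Tables were made with pandas 2.3.3 and numpy 2.4.6 in Python 3.11.15, and figures with matplotlib 3.10.9. The alternatives were the mean over probesets, filters on dim probesets or genes (below the 25th percentile), quantile normalization, median centring, values relative to the keratinocyte list, array weights, a robust eBayes fit with trend, a block for the number in the title, other choices of normal skin, hair keratins as a covariate or their arrays left out, and each array left out.

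Members and gene lists were chosen with earlier results of these data known. Named genes were the 9 members, up to 4 called genes per described list with the largest differences in the majority direction and up to 2 in the other, and for each member the gene most correlated with it. Listed genes without a probeset naming only them, Klk1 among them, were not analysed here.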

Additional observations from a re-analysis of the deposited data

Results flagged for a closer look

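Of the 18 combinations of a member and a group examined for a single array far from the rest, 1 stood out. Klk8 in keratoacanthoma 1 was at 9.47, while the other 4 tumours lay between 9.95 and 10.10, and its gap to the nearest tumour was 0.758 of the tumours' range, above Dixon's 95% critical value of 0.71. Chance gives such a gap in about 1 of 20 groups. Keratoacanthoma 1 was also the lowest tumour in 7 other members. Without it, Klk8 was still called higher in the tumours.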

How the results depend on the processing

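Of the differences of single members under each alternative, 213 kept their call in the comparison of keratoacanthoma with all normal skin and 3 gained one, all of Spink5. The counts of 8 members higher and 0 lower stayed at 8 or 9 and 0 under all 24 alternatives. In the same-genotype comparison 176 kept their call and 13 lost it. The count of members called fell to 4 with the replicate block, where 177 of all 20352 genes were called higher. Calls were also lost when either double transgenic skin was left out. After each group's mean was subtracted, same-numbered arrays had correlations between -0.18 and 0.10, and other pairs of a tumour and a skin between -0.15 and 0.25. These values cannot show whether same-numbered arrays shared an animal. The block left 8 members called against all normal skin.

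Between double and single transgenic normal skin, where no member was called under any alternative, 13 differences changed sign. With the replicate block Klk7 was at 0.18, Klk10 at 0.10 and Spink12 at 0.89, and with hair keratins as a covariate Klk13 was at -0.17. Leaving out single arrays gave -0.41 to 0.15 for Klk7, -0.92 to 0.13 for Klk8, -1.17 to 0.25 for Klk10, -0.50 to 0.63 for Klk13 and -1.68 to 1.19 for Spink12. The cause was not tested.

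Over all genes, 2959 were higher and 2200 lower in keratoacanthoma, 3485 and 1677 with median centring, 1203 and 9163 relative to keratinocyte genes, and 1942 and 1244 with double transgenic skin alone. In the same-genotype comparison 2164 were higher and 1411 lower, 943 and 492 with array weights, 177 and 194 with the block, 503 and 323 without normal skin 2, and 684 and 6816 relative to keratinocyte genes. The count between double and single transgenic skin, 2 higher and 1 lower, was 187 and 159 without normal skin 1.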
